A study of Saccharomyces cerevisiae with 10 samples.

Results

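The 6 genes ARG1, ARG2, ARG3, ARG4, ARG7 and ARG8 of Saccharomyces cerevisiae encode enzymes of arginine synthesis. Their messenger RNAs were described here from lists of protein-bound RNA stretches, called clusters, made by gPAR-CLIP. In gPAR-CLIP the uracil analogue 4-thiouracil is built into RNA, ultraviolet light joins it to bound proteins, and all protein-bound RNA is recovered, so a cluster shows that some protein was in contact and not which one. The members were named by gene, and the set was chosen from measured values: earlier results of these same lists had shown many clusters on them. They are 6 of 5910 nuclear mRNA genes examined. A cluster was counted for a gene when it lay on the same strand within the coding sequence, the 100 nt before it or the 150 nt after it.

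Arginine is made from glutamate through ornithine. The early steps, up to ornithine, take place in the mitochondrion, and the later steps, from ornithine through citrulline and argininosuccinate to arginine, take place in the cytosol. In yeast several of the synthesis genes, not all, are repressed when arginine is plentiful by a complex of Arg80, Arg81, Arg82 and Mcm1. The same complex activates arginine breakdown, and the transcription factor Gcn4 activates many amino acid synthesis genes when amino acids run short.

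The study used 10 libraries in 5 groups of 2 replicates, and the authors deposited 1 pooled cluster list per group, so no spread between replicates could be computed and no test between conditions was possible. All groups came from the wild-type laboratory strain BY4742, which the labels give as MATa with the alleles ura3-delta-0, lys2-delta-0, leu2-delta-0 and also his3-delta-1, none of them in an arginine gene, and all cells grew in synthetic defined (SD) medium with 200 µM 4-thiouracil. The groups were light-fraction total RNA in log phase (light total RNA), light polyA RNA after 2 h without nitrogen (nitrogen-starved polyA), light polyA RNA after 2 h without glucose (glucose-starved polyA), light polyA RNA in log phase (log-phase polyA), and heavy-fraction total RNA in log phase. The gradient was of sucrose, and light means lighter than the 40S ribosomal subunit.

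The light total RNA, nitrogen-starved, glucose-starved and log-phase polyA lists held 51574, 38936, 33345 and 61035 clusters. The heavy list held 115 clusters, with 0 on any of the 6 genes, and was not used further. A list gives positions only, with no count of reads per cluster. LYS2 and URA3, deleted per the labels, had 0 clusters in every light list, and LEU2 had 0 within its body. HIS3 had 12, 3, 0 and 0 clusters in the light total RNA, nitrogen-starved, glucose-starved and log-phase polyA lists, in a strain labelled his3-delta-1. The genes MF(ALPHA)1 and STE3, which are known as specific to the other mating type, had 7 to 18 and 4 to 16 clusters per list although the labels read MATa. STE2 and MFA1, known as specific to the labelled mating type, had 2 to 9 and 2 to 6. These counts include the flanks. Within the gene bodies, in the same order of lists, MF(ALPHA)1 had 14, 8, 4 and 10 clusters and STE3 had 13, 2, 2 and 11. In their bodies STE2 had 4, 7, 0 and 7 and MFA1 had 1, 1, 0 and 0. Every interval below is a 95% interval that covers counting error only, and clusters along 1 RNA are not independent of each other.

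The genome positions are those of build R64 in the RefSeq annotation. ARG2 (YJL071W, chrX:306132-307856, plus strand) encodes acetylglutamate synthase, which starts the pathway. ARG8 (YOL140W, chrXV:58759-60030, plus strand) encodes acetylornithine aminotransferase. ARG7 (YMR062C, chrXIII:395054-396379, minus strand) encodes ornithine acetyltransferase, which yields ornithine and returns the acetyl group to glutamate. ARG3 (YJL088W, chrX:268799-269815, plus strand) encodes ornithine carbamoyltransferase, which makes citrulline. ARG1 (YOL058W, chrXV:219211-220473, plus strand) encodes argininosuccinate synthetase, and ARG4 (YHR018C, chrVIII:140011-141402, minus strand) encodes argininosuccinate lyase, which releases arginine. Each gene has 1 coding exon, of 1725, 1272, 1326, 1017, 1263 and 1392 nt in the order just given, and no window held another gene on the same strand.

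The stretches that carried clusters in all 4 light lists show where binding was recovered in every condition. There were 3 such stretches, 1 in ARG1 and 2 in ARG4. The ARG1 stretch lies 37 nt after the last coding base, outside the coding sequence, at chrXV:220501-220518 on the plus strand. The ARG4 stretches lie within the middle of the coding exon, from base 485 and from base 514 of the coding sequence, at chrVIII:140907-140923 and chrVIII:140881-140890 on the minus strand. They are printed 5′ to 3′ in the direction of the RNA, with T for U, and capitals mark the bases covered in all 4 lists.
ARG1, after the coding sequence: ataacgatcTCTTCCTCc
ARG4, from base 485: cacacATTTACAAAGgg
ARG4, from base 514: gTCTCATTgg
The ARG1 stretch is a run of pyrimidines, and both ARG4 stretches contain A as well.

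Some further stretches were covered in all 3 polyA lists but not in light total RNA, and the ones after the coding sequence of ARG3 and ARG8 and within ARG3 and ARG8 are shown because they are the places those genes share between starved and log-phase cells. They were chosen after the lists were seen. The ARG3 stretches are at chrX:269280-269291, chrX:269756-269766 and chrX:269840-269858, and the ARG8 stretches are at chrXV:59023-59046 and chrXV:60066-60075, all on the plus strand. Capitals mark the bases covered in all 3 polyA lists.
ARG3, coding, from base 485: ataTATCTCtag
ARG3, coding, from base 961: gctATGTCTgc
ARG3, 30 nt after the coding sequence: taataTATAAATACAGata
ARG8, coding, from base 273: ctttacttCACTAAGgaatgtttg
ARG8, 37 nt after the coding sequence: tTTTTTTTTc
The light total RNA list had 0 clusters over the capitals of these 5 stretches. In the 6 genes together, 11 stretches were covered in all 3 polyA lists, including the 3 covered in all 4 lists, and 4 of the 11 lay after the coding sequence.

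The 6 genes carried 158 clusters in light total RNA and 94 in nitrogen-starved polyA RNA, but 18 in glucose-starved and 38 in log-phase polyA RNA. Those clusters covered 24.2%, 14.6%, 1.74% and 4.37% of the coding sequences and flanks, where the median nuclear mRNA gene was covered over 3.99%, 2.81%, 2.34% and 4.25% in the same 4 lists. The pooled share was thus close to that median in log-phase polyA RNA, below it in glucose-starved polyA RNA and several times above it in the other lists. Single genes differed: ARG3 and ARG7 lay above the glucose-starved median, and ARG2 and ARG8 lay less far above the medians of light total and nitrogen-starved RNA than the others. Per 10000 clusters of its list, the light total RNA list gave the set 30.6, the nitrogen-starved list 24.1, the glucose-starved list 5.4 and the log-phase list 6.23. More of an RNA in the cells or in the light fraction and more protein contacts per RNA molecule cannot be told apart in these lists.

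**Figure D1:**
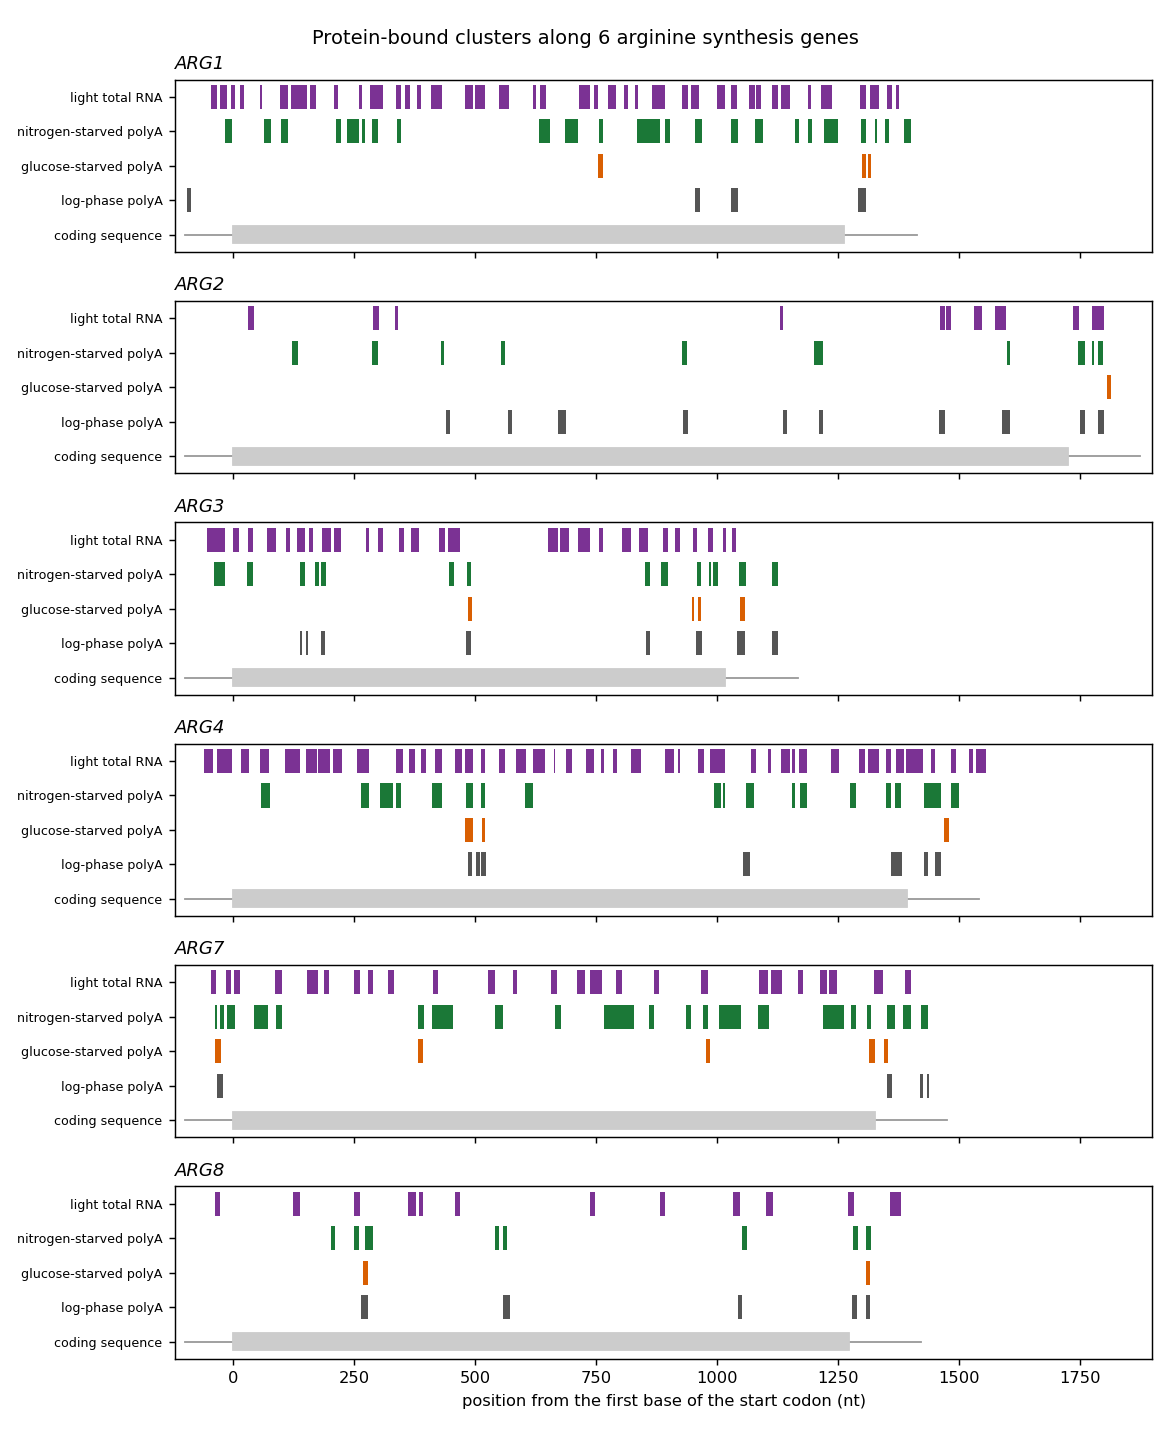
Every cluster on the 6 genes, by list, along the distance in nt from the first base of the start codon; boxes are clusters, and the grey bar is the coding sequence with its flanks as a line. ARG1 and ARG4 were tiled in light total RNA with 40 and 44 clusters, and ARG7 had 15 clusters within its coding sequence after nitrogen starvation and 0 in log-phase polyA RNA.

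In the mitochondrial steps, ARG2 had 10 clusters in light total RNA, 10 in nitrogen-starved, 1 in glucose-starved and 10 in log-phase polyA RNA, which covered 6.94%, 5.27%, 0.354% and 5.82% of its window. ARG2 was therefore level in 3 of the lists and low after glucose starvation. ARG8 had 12, 8, 2 and 5 clusters in light total RNA, nitrogen-starved, glucose-starved and log-phase polyA RNA, over 10.2%, 5.26%, 1.25% and 3.75% of its window. ARG7 had 25, 21, 5 and 4 clusters in the same order of lists, over 22.7%, 26.9%, 3.17% and 2.16% of its window. ARG7 was the only member covered over more of its length after nitrogen starvation than in light total RNA, and the only one covered over more of its length after glucose starvation than in log-phase polyA RNA.

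In the cytosolic steps, ARG3 had 27 clusters in light total RNA, 14 in nitrogen-starved, 4 in glucose-starved and 8 in log-phase polyA RNA, over 30.7%, 12.2%, 2.45% and 6.00% of its window. ARG1 had 40, 23, 3 and 4 clusters in the same order, over 37.1%, 23.1%, 1.59% and 3.30% of its window. ARG4 had 44, 18, 3 and 7 clusters, over 42.7%, 16.6%, 2.07% and 5.05% of its window. By the share of the window covered, not scaled to list size, all 3 genes were highest in light total RNA and next after nitrogen starvation. They were lowest on that measure after glucose starvation. Scaled to list size, the glucose-starved to log-phase cluster ratios were 1.37 (0.201 to 8.11) for ARG1, 0.915 (0.202 to 3.42) for ARG3 and 0.784 (0.131 to 3.44) for ARG4. All 3 intervals include equality, so glucose-starved and log-phase levels could not be ordered.

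Ranked by the share of the window covered, the order in light total RNA was ARG4, ARG1, ARG3, ARG7, ARG8 and ARG2, and in nitrogen-starved polyA RNA it was ARG7, ARG1, ARG4, ARG3, ARG2 and ARG8. In log-phase polyA RNA ARG3 came first and ARG7 last. ARG4 and ARG7 were ranked 44 and 511 among the 5910 mRNA genes in light total RNA, 129 and 22 in nitrogen-starved polyA RNA, 3241 and 2275 in glucose-starved polyA RNA, and 2436 and 4542 in log-phase polyA RNA. Neighbours in these orders were within counting error: the 44 clusters of ARG4 in light total RNA have an exact Poisson interval of 32.0 to 59.1, and the 40 of ARG1 have 28.6 to 54.5. In log-phase polyA RNA the 10 clusters of ARG2, the most of any member, have an interval of 4.80 to 18.4 and the 4 of ARG7 have 1.09 to 10.2. In light total RNA the interval of ARG4 lies wholly above that of ARG2, whereas in log-phase polyA RNA the intervals of all members overlap.

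**Figure D2:**
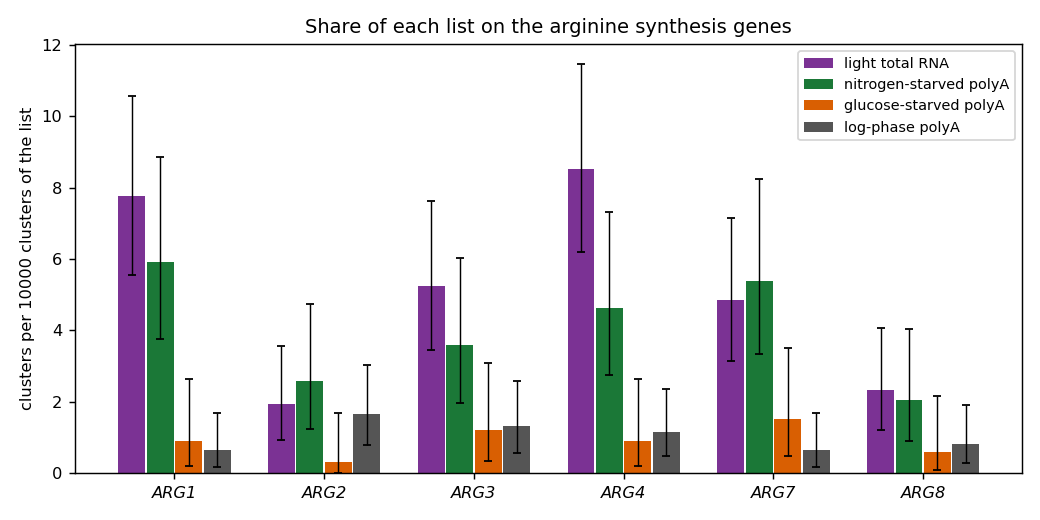
Clusters per 10000 clusters of the list for the 6 genes in the 4 light lists; bars are the 1 pooled list of each group, and error bars are exact Poisson 95% intervals of the cluster count. The light total RNA and nitrogen-starved bars stand above the log-phase bars for all 6 genes, but the intervals of ARG2 and ARG8 in both lists, and of ARG3 after nitrogen starvation, overlap those of log phase.

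The comparison of light total RNA with log-phase polyA RNA asks what the light fraction holds with and without selection for polyA tails. Over all mRNA genes these lists also differ in median cluster width, 13 against 10 nt, and in G content, 16.7% against 7.40%. Selection and any other difference between the libraries cannot be told apart. Cluster counts were set per list size, and the ratio has an exact conditional binomial interval. Over the 6 genes the ratio of light total RNA to log-phase polyA RNA was 4.92 (3.43 to 7.21). ARG1 had a ratio of 11.8 (4.28 to 45.5), ARG4 7.44 (3.32 to 19.6), ARG7 7.40 (2.55 to 29.2) and ARG3 3.99 (1.77 to 10.2). ARG8 had 2.84 (0.931 to 10.3) and ARG2 1.18 (0.442 to 3.17), both with intervals that include equality. The difference was thus carried by the genes of the cytosolic steps and by ARG7.

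To place the genes among all others, the covered length was scaled to the covered length of the list, 20 nt were added to each length so that genes with little coverage do not give extreme ratios, and the log2 ratio was taken for each mRNA gene with a cluster in either list. All 6 members entered every comparison. On that scale, 4 of the 6 members were at least 2-fold higher in light total RNA than in log-phase polyA RNA, where 12.7% of 5654 genes were, and 0 were at least 2-fold lower, where 23.6% of genes were. The members' median log2 ratio was 2.25 and that of all genes was −0.16. ARG1, ARG4 and ARG7 had log2 ratios of 2.86, 2.61 and 2.61 and ranked 20, 30 and 31 from the top, and ARG3 had 1.89. The set was chosen with this contrast known, so these counts describe it and are no evidence for it.

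The comparison of nitrogen-starved with log-phase polyA RNA asks which contacts change when cells lose their nitrogen source. Over the 6 genes the ratio of nitrogen-starved to log-phase clusters per list size was 3.88 (2.63 to 5.81). ARG1 had 9.01 (3.08 to 35.9), ARG7 8.23 (2.78 to 33.0), ARG4 4.03 (1.61 to 11.4) and ARG3 2.74 (1.07 to 7.55). ARG8 had 2.51 (0.723 to 9.74) and ARG2 1.57 (0.586 to 4.20). Of the 6 members, 4 were at least 2-fold higher in covered length after nitrogen starvation, where 7.28% of 5644 genes were, and the members' median log2 ratio was 1.78 against 0.15 for all genes. ARG7, with a log2 ratio of 3.63, ranked 1 of 5644 genes, and ARG1, with 3.00, ranked 6. This contrast was also known when the set was chosen.

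The comparison of glucose-starved with log-phase polyA RNA asks the same of the loss of the carbon source. Over the 6 genes the ratio of glucose-starved to log-phase clusters per list size was 0.867 (0.466 to 1.56), so no difference was detectable at these counts. In covered length 1 of 6 members, ARG7, was at least 2-fold higher after glucose starvation, where 8.8% of 5624 genes were, and 1 of 6, ARG2, was at least 2-fold lower, where 2.6% of genes were. ARG2 had 1 cluster against 10, a ratio of 0.183 (0.00422 to 1.29), and ARG7 had 5 against 4, a ratio of 2.29 (0.492 to 11.5). The ARG2 call was lost when 50 nt were added to each length, and the ARG7 call when clusters under 10 nt were left out. The members' median log2 ratio was −0.12 and that of all genes was 0.26; with 50 nt added they were 0.16 and 0.43. The 3 comparisons share the log-phase polyA list, so their values are given side by side and were not correlated.

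Nitrogen-starved and glucose-starved polyA RNA share no list, and they were set against each other as a comparison added after the lists were seen. Over the 6 genes the ratio of nitrogen-starved to glucose-starved clusters per list size was 4.47 (2.68 to 7.87). All 6 members were at least 2-fold higher in covered length after nitrogen than after glucose starvation, where 4.56% of 5487 genes were; both lists were known when the set was chosen. The ratio of cluster counts was 6.57 (1.98 to 34.2) for ARG1, 5.14 (1.50 to 27.2) for ARG4, 3.60 (1.32 to 12.2) for ARG7 and 3.00 (0.941 to 12.5) for ARG3. ARG2 had 10 clusters after nitrogen starvation against 1 after glucose starvation, and ARG8 had 8 against 2.

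**Figure D3:**
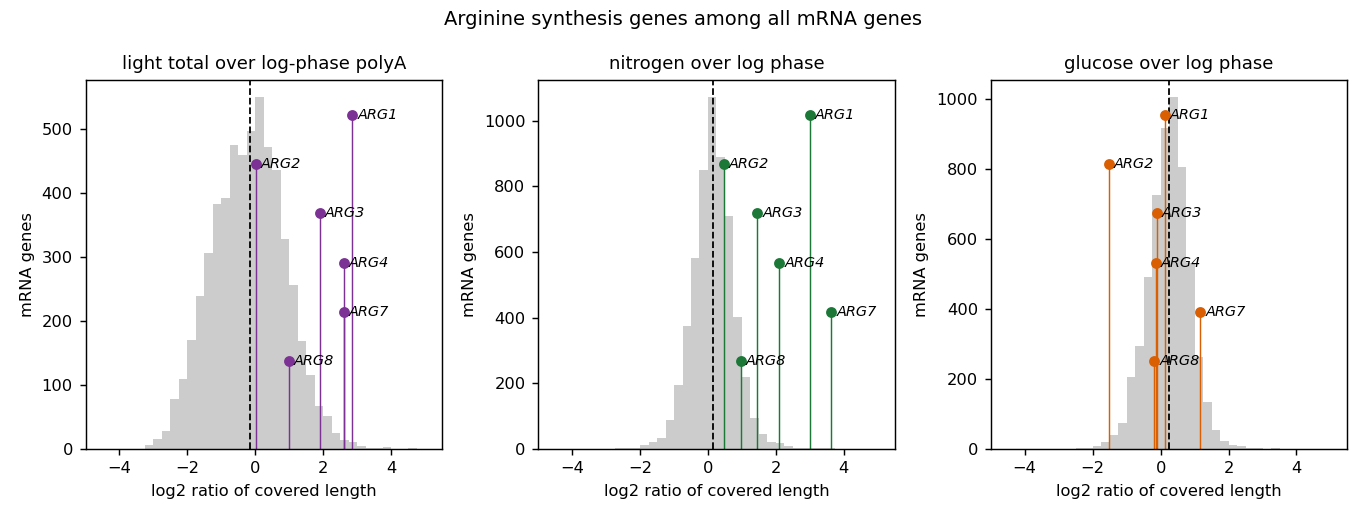
Log2 ratio of scaled covered length (x axis) for all mRNA genes as grey histograms (y axis, number of genes) with the 6 members as points whose height carries no value; the dashed line is the median of all genes. In the light total RNA and nitrogen panels ARG1, ARG3, ARG4 and ARG7 lie at 1.45 or above, while in the glucose panel only ARG2 (−1.52) and ARG7 (1.17) lie beyond 1 in either direction.

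Along the RNA, the clusters of the members lay mostly in coding sequence in the lists where there were many of them. The share of member clusters with a midpoint in the coding sequence was 84.2% (77.7 to 89.0) in light total RNA, 77.7% (68.2 to 84.9) in nitrogen-starved, 55.6% (33.7 to 75.4) in glucose-starved and 63.2% (47.3 to 76.6) in log-phase polyA RNA, with Wilson intervals. Over all mRNA genes the coding share was 78.0%, 61.0%, 60.3% and 67.1% in those lists. The coding sequence makes up 84.2% of the members' windows, so in light total RNA the clusters fell in coding sequence in proportion to its length. The 150 nt after the coding sequence held 10.1% (6.33 to 15.8), 17.0% (10.8 to 25.9), 38.9% (20.3 to 61.4) and 31.6% (19.1 to 47.5) of member clusters, against 13.7%, 30.6%, 30.8% and 24.5% over all genes. After nitrogen starvation the members thus held a smaller share of their clusters after the coding sequence than mRNA genes in general.

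ARG7 had 15 clusters within the coding sequence in nitrogen-starved polyA RNA, 3 before it and 3 after it. In log-phase polyA RNA its 4 clusters lay outside, 1 before and 3 after the coding sequence, with 0 within it. The longest stretch of the ARG7 window without a cluster was 282 nt after nitrogen starvation and 1372 nt in log phase. In ARG1 that stretch was 284 nt after nitrogen starvation and 1040 nt in log phase. In light total RNA it was 56 nt in ARG4, 68 nt in ARG1 and 105 nt in ARG7, but 789 nt in ARG2.

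The nitrogen-starved clusters of ARG7 were also wide. They averaged 20.2 nt, with the widest at 62 nt, against 8.5 nt in log-phase polyA RNA and 12.0 nt for all mRNA genes after nitrogen starvation. The 62-nt cluster lies in the middle of the coding exon, from base 767 to base 828, and its first 30 nt are at chrXIII:395584-395613 on the minus strand. The widest clusters of the other members with no stretch in all 4 lists were in light total RNA: in ARG3 a 37-nt cluster from 54 to 18 nt before the start codon, of which the first 30 nt are at chrX:268745-268774, in ARG2 a 25-nt cluster 50 nt after the coding sequence at chrX:307906-307931, and in ARG8 a 21-nt cluster 87 nt after it at chrXV:60117-60137, all on the plus strand. Capitals mark the bases of the widest cluster.
ARG7, coding: ACACAATTTGCATGTTGGCCAACGGTGCTA
ARG3, before the start codon: CAATTTTTTTTTTTTTTTTTAGCCATCTAC
ARG2, after the coding sequence: TTTTTAAGGTATCTATATAAATATAt
ARG8, after the coding sequence: CACATAGGAACATCTTACGTG
The ARG3 cluster spans a long run of T before the start codon and was overlapped by a nitrogen-starved cluster but by none from glucose-starved or log-phase polyA RNA. The ARG7 and ARG8 stretches are mixed in base content, and all 4 of these printed stretches hold G among the covered bases.

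Clusters were searched for shared positions, where an overlap means 1 nt or more on the same strand. Of the members' 158 light total RNA clusters, 57 overlapped a nitrogen-starved cluster (36.1%, 29.0 to 43.8) and 16 a log-phase polyA cluster (10.1%, 6.33 to 15.8), against 24.4% and 30.9% of the light total RNA clusters of all mRNA genes. Of the 94 nitrogen-starved clusters, 56 overlapped light total RNA (59.6%, 49.5 to 68.9) and 28 overlapped log-phase polyA RNA (29.8%, 21.5 to 39.7), against 38.8% and 73.1% over all mRNA genes. Summed over the 6 genes, the nitrogen-starved clusters thus overlapped light total RNA more often than log-phase polyA RNA, the other way round from mRNA genes in general. By gene this held in ARG1, ARG3, ARG4 and ARG7 but not in ARG2, with 4 of 10 over light total RNA and 5 of 10 over log-phase polyA RNA, nor in ARG8, with 2 of 8 and 4 of 8. Of the 38 log-phase clusters, 29 lay over a nitrogen-starved cluster (76.3%, 60.8 to 87.0), against 48.2% over all mRNA genes. Of the 18 glucose-starved clusters 14 did (77.8%, 54.8 to 91.0), against 64.1% over all mRNA genes, which lies within that interval. ARG4 shared 16 of its 18 nitrogen-starved clusters with light total RNA. Lists with more covered sequence overlap more by position alone, and how far that sets these shares was not tested.

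The nitrogen-starved libraries carry the same pair of barcodes as the light total RNA libraries, per the labels. The mRNA genes with the highest ratio of light total to log-phase polyA RNA, FAS2, TKL2, PMA2 and INO1, had 137, 28, 30 and 46 clusters in light total RNA but 1, 1, 2 and 4 in nitrogen-starved polyA RNA. HIS3, ranked 7 in that ratio, had 12 clusters in light total RNA, 3 in nitrogen-starved polyA RNA and 0 in both other light lists. Among genes high after nitrogen starvation, DAL5, DAL80 and SUL1 had 25, 8 and 12 clusters in nitrogen-starved polyA RNA and 0 in light total RNA, GAP1 had 20 and 5, and SNZ1 had 9 and 13. Whether the shared barcodes bear on the members' values was not tested.

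Base content of the clusters changed along with the coverage. Guanine made up 18.7% of the bases in the members' clusters in light total RNA and 16.2% in nitrogen-starved polyA RNA, but 6.06% and 7.71% in glucose-starved and log-phase polyA RNA. Over all mRNA genes it made up 16.7%, 6.08%, 7.28% and 7.40%, and the members' whole windows hold 20.2%. After nitrogen starvation the pooled member value thus lay nearer to light total RNA than to the value of all mRNA genes, and it was carried by ARG1, ARG4 and ARG7. Within the set the nitrogen-starved value was 20.0% in ARG7, 18.7% in ARG4 and 17.4% in ARG1, but 10.4% in ARG3, 10.0% in ARG8 and 3.85% in ARG2. Other genes high after nitrogen starvation varied as well. GAP1 had 18.9%, DAL80 20.8% and SNZ1 16.9%, but DAL5 had 13.9% and SUL1 6.38%. Well-covered genes had more G in every list: among mRNA genes with at least 60 clustered bases, the median after nitrogen starvation was 3.33% in genes covered over less than 5% of the window and 14.5% in genes covered over 20% or more, and in log phase it was 4.49% and 14.7%. The part of coverage in the members' G content was not tested. Every member cluster held at least 2 T, the base that 4-thiouracil replaces, as did every cluster of all mRNA genes in the 4 light lists.

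**Figure D4:**
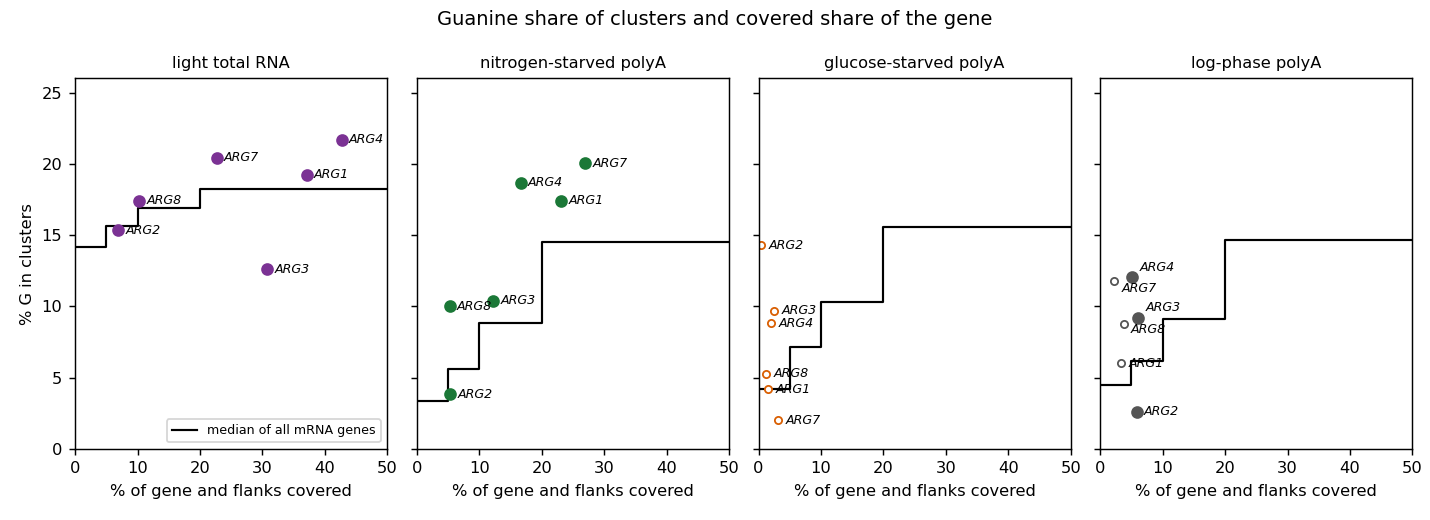
Share of G in the clusters of each member (y axis, %) against the share of the gene and flanks covered (x axis, %) in the 4 light lists; the black steps are the medians of all mRNA genes with at least 60 clustered bases, and open circles are members with fewer than 60. After nitrogen starvation ARG7, ARG4 and ARG1 lie at 17.4% to 20.0% G, above the steps, which end at 14.5%.

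CPA1, ARG5,6 and ORT1, other genes of the pathway, all had log2 ratios of light total RNA to log-phase polyA RNA above the median of all genes. CPA1 encodes a subunit of the carbamoyl phosphate synthetase that feeds the citrulline step, and it had 36 clusters in light total RNA, 19 in nitrogen-starved, 12 in glucose-starved and 16 in log-phase polyA RNA. ARG5,6, which encodes the acetylglutamate kinase and reductase in 1 precursor, had 54, 16, 4 and 11, and ORT1, the mitochondrial ornithine carrier, had 8, 5, 1 and 4. Of these 3 genes, 1 was at least 2-fold higher in light total RNA than in log-phase polyA RNA, where 12.7% of all genes were. It was ARG5,6, with a log2 ratio of 2.73, and CPA1, with 1.00, fell just short. After nitrogen starvation 2 were higher than in log phase, ARG5,6 with 1.60 and ORT1 with 1.10, where 7.28% of all genes were. After glucose starvation 0 were, where 8.8% of all genes were. In cluster counts the nitrogen ratios were 2.28 (0.994 to 5.43) for ARG5,6 and 1.96 (0.422 to 9.87) for ORT1, both with intervals that include equality. The light total RNA ratio of ARG5,6 was 5.81 (3.00 to 12.3).

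Among the regulators ARG80, ARG81, ARG82, MCM1 and GCN4, 0 of 5 passed a 2-fold difference from log-phase polyA RNA in any of the 3 comparisons. Over all genes 12.7% were at least 2-fold higher and 23.6% lower in light total RNA. After nitrogen starvation 7.28% were higher and 160 of 5644 genes lower, and after glucose starvation 8.8% were higher and 2.6% lower. A count of 0 among 5 genes therefore does not set the regulators apart from mRNA genes in general. GCN4 had 24 clusters in light total RNA, 16 in nitrogen-starved, 11 in glucose-starved and 19 in log-phase polyA RNA, and its log2 ratios to log phase were 0.17, 0.31 and 0.08. ARG80 had 1 or 2 clusters in each list, too few to compare. The breakdown genes CAR1, arginase, and CAR2, ornithine aminotransferase, had 2 and 4 clusters in light total RNA, 5 and 5 in nitrogen-starved, 6 and 6 in glucose-starved and 7 and 4 in log-phase polyA RNA. CAR1 was at least 2-fold lower in light total RNA, with a log2 ratio of −1.37, where 23.6% of all genes were. CAR2 was at least 2-fold higher after glucose starvation, with 1.32, where 8.8% of all genes were. In cluster counts the ratios were 0.338 (0.0343 to 1.78) for CAR1 and 2.75 (0.651 to 13.2) for CAR2. Both intervals include equality.

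**Figure D5:**
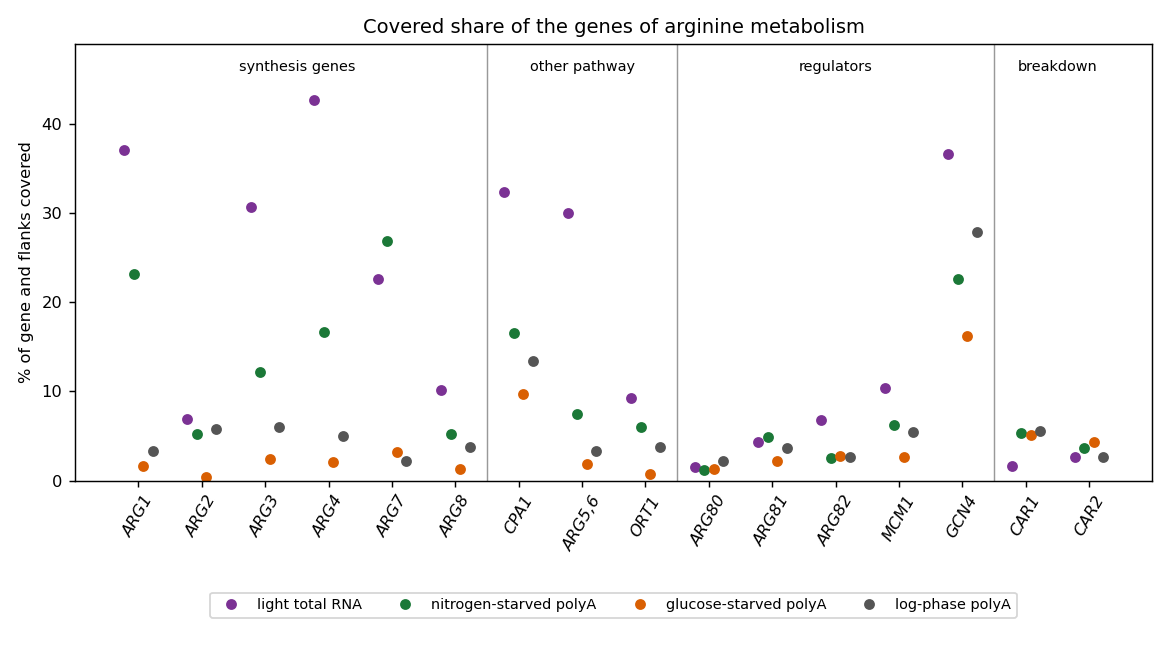
Share of the gene and its flanks covered by clusters (y axis, %) for the 6 members, 3 other pathway genes, the regulators and the breakdown genes, with 1 point for each light list. The enzymes of synthesis are spread over up to 42.7%, and GCN4 is covered widely in all 4 lists. The points of ARG80, ARG81, ARG82 and both breakdown genes lie at 6.83% or below. After glucose starvation CAR1 and CAR2, at 5.11% and 4.33%, lie above all 6 members, of which ARG7 is highest at 3.17%.

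Other amino acid pathways were counted in the same way, without a test between the pathways. In light total RNA over log-phase polyA RNA, 5 of 10 branched-chain genes, 8 of 12 histidine and lysine genes and 8 of 12 aromatic genes were at least 2-fold higher, with median log2 ratios of 1.03, 1.45 and 1.84 against 2.25 for the arginine members. After nitrogen starvation 5 of 10, 5 of 12 and 3 of 12 were, with medians of 1.10, 0.96 and 0.78 against 1.78. After glucose starvation 1 gene of each list was, with medians of 0.57, 0.37 and 0.60 against −0.12. Over all genes the shares at least 2-fold higher were 12.7% in light total RNA, 7.28% after nitrogen starvation and 8.8% after glucose starvation. Ratios for light total RNA lay above the all-gene median in 9, 11 and 10 genes of the 3 lists in that order. HIS6 was at least 2-fold lower, with 0 clusters in light total RNA and 6 in log-phase polyA RNA. A high level in light total RNA was thus common to many genes of these pathways but not to all.

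The genes whose 4-list profile was closest to the members' median profile, among 4507 genes with at least 10 clusters over the 4 light lists, were SRY1, YLR156W, LEU4, RIB5 and PLN1. Likeness was the Euclidean distance between log2 profiles centred on the gene's mean, which was 0.28 for SRY1, 0.32 for YLR156W, 0.47 for LEU4, 0.53 for RIB5 and 0.55 for PLN1. LEU4, an isopropylmalate synthase of leucine synthesis, had 46, 21, 9 and 9 clusters in light total RNA, nitrogen-starved, glucose-starved and log-phase polyA RNA. The nearest genes rest on few clusters, just above the filter of 10. SRY1 had 5, 5, 0 and 1 in the same lists, and YLR156W had 6, 2, 1 and 3. Among the members themselves ARG3 lay closest to the median profile, at 0.32, and ARG2 farthest, at 1.40.

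Known sequence elements were looked up as descriptions. The core of the Gcn4 site, TGACTC on either strand from 250 nt before to 50 nt after the start of the coding sequence, was present in ARG2, ARG4, ARG7 and ARG8, 4 of 6 members, and in 8.10% of mRNA genes. In the 150 nt after the coding sequence, TATATA on the RNA's strand was present in ARG2, ARG3, ARG4 and ARG7 and in 42.9% of mRNA genes, and TTTTTT was present in ARG8 and in 36.6%. The TATATA of ARG3, which runs into the stretch printed above, and the T run of ARG8 carried clusters in all 3 polyA lists and in light total RNA carried 0. The first TATATA of ARG2 carried clusters in light total RNA, nitrogen-starved and log-phase polyA RNA. The TATATA copies of ARG4 and ARG7 carried clusters in 0 of the 4 lists.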

How the data were processed

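Protein-bound RNA was measured by gPAR-CLIP. The submitters' processing notes name Bowtie 0.12.7 and build R64; the authors deposited 1 list of cluster positions per group, pooled over both replicates, per the labels. The deposited lists hold coordinates and no score, count or coverage. How clusters were called, with which thresholds, and how multiply mapping reads were handled are details not given in the sources used here. Same-strand clusters were counted for 5910 nuclear mRNA genes of 6477 annotated genes in the RefSeq annotation of R64, Ty and mitochondrial genes left out, with Python 3.11.15 and scipy 1.17.1; ARG5,6 is listed there as ARG56 (YER069W). A cluster near a gene end counts when 1 nt overlaps, and covered length is cut at the window. The members and lists were chosen with earlier results of these data known. Genes named were the 6 members, other pathway, regulator and breakdown genes (1 pathway gene of the rule is not reported here), and the 5 genes nearest in profile; genes that check the strain, the barcodes or a feature singled out were named after their values were seen. With 1 list per group there is no test; intervals are exact conditional binomial, exact Poisson or Wilson. Scripts were tested on simulated data. Alternatives covered flanks, width, scaling, strand, assignment, neighbours, added length, measure, a filter on low counts and overlap.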

Additional observations from a re-analysis of the deposited data

Results flagged for a closer look

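Clusters on the strand opposite to the 6 genes, which no comparison above used, were 0 within the coding sequences in light total RNA, nitrogen-starved and glucose-starved polyA RNA, against 5 in log-phase polyA RNA. ARG1 held 3 of them, with midpoints at bases 8, 1206 and 1216 of the coding sequence, ARG4 held 1 at base 1370 and ARG8 held 1 at base 880. No annotated gene lies on the opposite strand within 150 nt of ARG1 or ARG8. With the flanks included, every light list held opposite-strand clusters. Counted on either strand, light total RNA, nitrogen-starved, glucose-starved and log-phase polyA RNA held 160, 100, 22 and 51 clusters. On the strand of the gene they held 158, 94, 18 and 38. The rate of opposite-strand clusters over all mRNA genes was not computed. The log-phase list holds the most clusters of the 4, but the light total RNA list covers more sequence, with 794967 against 693218 nt.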

How the results depend on the processing

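No paired analysis was possible because both replicates of a group are pooled in 1 list, and for the same reason no replicate could be left out. There were 81 alternative values of the summed ratios, the counts of members at least 2-fold higher, the median log2 ratios, the overlap shares and the shares after the coding sequence. Of these, 79 stayed within a set limit. For ratios and shares the limit was the counting interval of the main value, and for counts of members it was 1.5 times the main count. Median log2 ratios have no counting interval of their own. Their limit was a change of 50% of the width of the summed ratio's interval on the log2 scale. Counts of members at least 2-fold lower were not among the 81. Some of the 81 could not move. No window held another gene on the same strand, so leaving out clusters in other genes returned the main ratios. A filter of at least 3 clusters in one list kept all 6 members and so could not change the counts of members. The count of members at least 2-fold higher was 4 or 5 of 6 under every alternative in light total RNA and after nitrogen starvation, each over log-phase polyA RNA. The median log2 ratio of the members above that of all genes ran between 2.01 and 2.60 and between 1.29 and 1.88 in those comparisons. With clusters of at least 10 nt, the members at least 2-fold higher after glucose starvation than in log phase numbered 0 in place of 1. With 50 nt added to each length, the members at least 2-fold lower after glucose starvation numbered 0 in place of 1, and the members' own median log2 ratio changed sign to 0.16, while it stayed below that of all genes. When overlap had to reach 50% of the cluster width, 5.06% in place of 10.1% of the light total RNA clusters overlapped log-phase polyA clusters. The nitrogen-starved against glucose-starved ratio and its alternatives were added after seeing the data. The glucose-starved list had 18 clusters on the 6 genes, which limits the precision of its values.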
